A study of Mus musculus with 9 samples.

Results

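The genes described here are 518 of the 5880 robustly measured genes of orthotopic Hepa1-6 tumors. They are the genes whose 3 values in anti-PD-1 antibody-responsive tumors all lay on one side of the 3 values in anti-PD-1 antibody-nonresponsive tumors. A gene was robustly measured when it had a row of its own in all 9 deposited tables and an FPKM (sequenced fragments of a gene relative to its transcript length and to the library) of at least 5 in all 6 antibody-treated tumors, and 45555 gene names had such a row. Genes of the immune lists (351 robustly measured, 12 higher and 19 lower without overlap) and of the hepatocyte lists (276 robustly measured, 75 higher and 1 lower) were set aside, which left 5254 genes. Of the 518, 204 were higher and 314 lower in responsive tumors. The genes were selected on these same measured values, so their differences between the 2 groups are descriptions and carry no test.

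Hepa1-6 is a mouse hepatoma cell line, and all 9 mice were C57BL/6, aged 6 to 8 weeks when obtained. Tumors were grown in the liver, and mice received PBS or anti-PD-1 antibody at 5 mg/kg every 4 days for 5 injections, from day 10 to day 26, with collection on day 27. The 3 responsive tumors were the smallest and the 3 nonresponsive tumors the largest of the antibody-treated mice, and intermediate tumors were left out, so the groups are defined by size and treatment response together. The 3 PBS tumors received no antibody. Each tumor was sequenced whole after the surrounding tissue was removed, so that fewer cells of a type and less RNA per cell cannot be told apart in any value below.

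Anti-PD-1 antibody blocks an inhibitory receptor on T cells. The tissue in which those T cells act also holds tumor cells, fibroblasts and vessels. Actin filaments and their motors give cells shape and pull on the surrounding matrix, which fibroblasts assemble from collagens, fibulins and crosslinking enzymes. Mitochondria oxidize fuels through the citric acid cycle and pass the electrons along the respiratory complexes, whereas glycolysis breaks down glucose in the cytosol.

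Some cell type markers differed between the groups, and they are given before the results. The mean log2(FPKM + 1) of the hepatocyte core markers (19 genes, among them Alb and Apoa1) was 8.71, 7.62 and 7.88 in the responsive tumors, 7.64, 6.59 and 5.86 in the nonresponsive tumors and 3.43, 6.08 and 6.52 in the PBS tumors. Responsive tumors were thus higher in all but 1 pairing, in which responsive tumor 2 lay just under nonresponsive tumor 1. The summed FPKM of 10 stellate cell and fibroblast markers was 2558 to 2937 in responsive and 2998 to 5346 in nonresponsive tumors, and that of 8 T cell markers was 113 to 145.3 against 87.6 to 95.3, both without overlap. Skeletal muscle markers reached 346 in nonresponsive tumor 3 and pancreatic acinar markers 1229 in nonresponsive tumor 2, where other tumors had at most 105 and 18.1. The muscle markers did not overlap either, at 19.4 to 23.7 in responsive and 28.6 to 346 in nonresponsive tumors. All other lists of the 14 overlapped, among them Kupffer cell, macrophage, B and plasma cell, neutrophil, endothelium, cholangiocyte and erythroid markers. Entries that name no gene took 21.0% to 55.2% of summed FPKM in responsive and 70.4% to 73.2% in nonresponsive tumors. The median FPKM of the robustly measured genes was nonetheless close, 19.1 to 21.0 against 20.1 to 21.6. Sequencing depth is not part of the values, and Cufflinks' own confidence intervals reached a median of 8.76% to either side of a value. The part of these differences in the results was not tested, except where a value with the hepatocyte markers as a covariate is given.

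Groups without overlap were no more than a small share of the genes. Over all 5880 genes, 4.95% were higher and 5.68% lower in responsive tumors, and over the 5254 genes outside the immune and hepatocyte lists these shares were 3.88% and 5.98%. limma gave 369 of the 5880 genes (6.28%) an unadjusted p under 0.05, 250 of them higher in responsive tumors, and 0 an adjusted p under 0.05, the smallest being 0.771. With 3 tumors against 3, an exact permutation test on a single gene cannot go below p = 0.1. A gene without overlap reaches exactly this floor. Random labels would therefore separate the groups of a gene, in one direction or the other, with a probability of 0.1. The shares of genes without overlap, higher and lower counted jointly, were close to that probability. The number of members is thus about what random labels would give, and an excess over it was not tested. Median-ratio scaling moved the share higher in responsive tumors from 67.8% to 78.3% of the genes with such a p, while it was 48.0% with all 9 tumors in 1 fit, 22.9% with the hepatocyte markers as a covariate in that fit, 36.6% without nonresponsive tumor 3, 54.3% without nonresponsive tumor 2 and 56.6% without responsive tumor 1. The same scaling moved it from 46.6% to 59.6% of the genes without overlap. The median difference (responsive minus nonresponsive, log2(FPKM + 1)) was 0.46 for the 204 higher genes, with a range of 0.10 to 1.49, and -0.39 for the 314 lower genes, with a range of -2.37 to -0.11, against -0.08 for all 5880. A difference of at least 1 in size was reached by 23 of the 204 higher and 10 of the 314 lower genes, beside 243 of all 5880. Cufflinks' intervals stayed apart between the groups for 37 of the higher and 51 of the lower genes, and for 133 of all 5880. Intervals can stay apart only where the values do, so all 133 are among the genes without overlap. A larger share among the members thus follows from the selection.

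**Figure D1:**
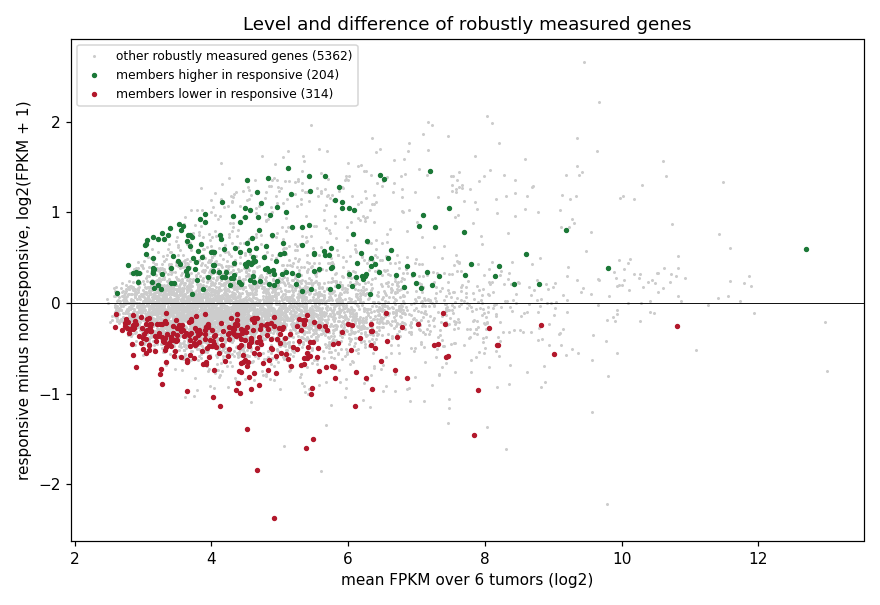
Difference between responsive and nonresponsive tumors in log2(FPKM + 1) against the mean FPKM over the 6 antibody-treated tumors on a log2 scale, 1 point per robustly measured gene. The 204 higher genes (green) and the 314 lower genes (red) lie on either side of 0 at all levels, and many other genes (gray, with overlapping groups or in the immune and hepatocyte lists) have differences as large.

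The widest gaps among the higher genes included enzymes and transporters. Lhpp, a phosphatase of phosphohistidine, was at 15.8, 17.6 and 15.8 FPKM in responsive tumors, 9.39, 9.46 and 9.23 in nonresponsive tumors and 10.7, 11.9 and 11.7 in PBS tumors. Its difference was 0.75 (log2, pooled SD within groups 0.06, n = 3 per group), and no value of one group came near the other. Nipsnap1, a mitochondrial matrix protein, was at 39.9, 31.9 and 30.9 FPKM against 19.1, 13.9 and 18.98, with PBS tumors at 15.8 to 19.4. Slc25a23, a mitochondrial carrier of ATP-magnesium and phosphate, was at 32.5, 35.1 and 24.2 FPKM in responsive tumors and 17.2, 13.4 and 12.2 in nonresponsive tumors, a difference of 1.05 (pooled SD 0.26). Both nonresponsive and PBS tumors (10.5 to 12.2) lay low for this carrier. Pecr, a peroxisomal reductase of fatty acid elongation, was at 40.2, 33.5 and 34.5 FPKM against 23.1, 13.9 and 13.2, and Slc19a2, a thiamine transporter, at 15.5, 13.4 and 18.2 against 9.26, 9.23 and 9.46. Arfgap2, which acts on the Golgi coat, differed by 1.06 (pooled SD 0.25), but its PBS tumors (28.8 to 47.9 FPKM) lay with the responsive ones. The remaining 9 of the 15 widest gaps, Gm4737, Tns2, Mosmo, Cmbl, Vwa8, Ift20, Hyi, Atp9a and Dnajc12, differed by 0.71 to 1.22. Ift20 was listed at 0 in PBS tumor 3.

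The widest gaps among the lower genes included matrix, junction and signaling genes. Emc7, a subunit of the ER membrane complex that inserts proteins, was at 11.7, 9.28 and 9.80 FPKM in responsive and 36.7, 53.5 and 30.8 in nonresponsive tumors, a difference of -1.85 (pooled SD 0.30). PBS tumors 1 and 3 (8.49 and 9.68) were as low as the responsive ones. Mfap5, a microfibril protein, was at 11, 5.49 and 7.51 FPKM against 23.2, 95.0 and 38.8, and at 51.0 in PBS tumor 1 but 7.16 and 7.18 in the others. Its difference of -2.37 was the furthest from 0 of all 518 and had a pooled SD of 0.78. Gja1, the gap junction protein connexin 43, was at 12.6, 13.7 and 14.2 FPKM in responsive, 22.6, 28.3 and 31.5 in nonresponsive and 28.7, 21.3 and 28.7 in PBS tumors. Here all 3 PBS tumors lay above the responsive ones. Runx1, a transcription factor of blood and mesenchymal cells, was at 16.2, 16.3 and 17.3 against 32.5, 31.5 and 26.3 FPKM, a difference of -0.82 (pooled SD 0.12). Nampt, the rate-limiting enzyme of NAD salvage, was at 47.9, 36.2 and 41.1 against 127, 77.3 and 80.3 FPKM. Dusp6, a phosphatase that switches off ERK, was at 38.0, 46.4 and 39.7 against 63.7, 74.3 and 65.2 FPKM. The other 9, Col12a1, Gpr107, Lacc1, Pomp, Frmd4a, Mrpl1, Rab5if, Klf7 and Ndel1, differed by -1.45 to -0.57.

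**Figure D2:**
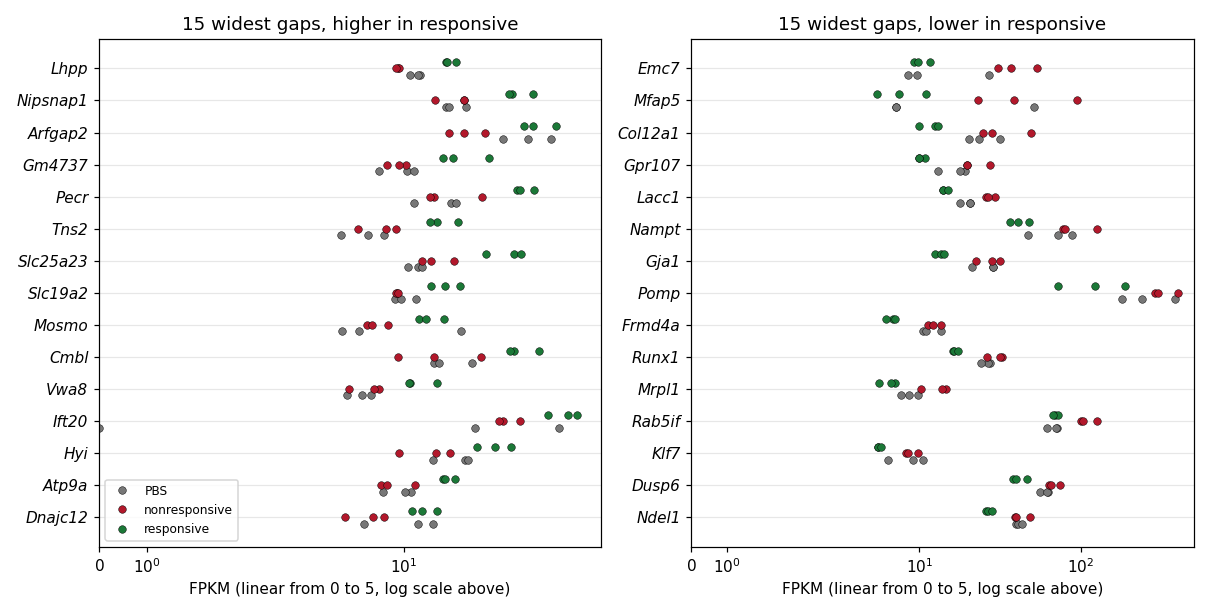
FPKM of the 15 genes with the widest gap in each direction, 1 point per tumor, on an axis that is linear from 0 to 5 and logarithmic above. Responsive (green) and nonresponsive (red) points do not mix, by the rule that chose the genes, while PBS points (gray) fall on either side or between.

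Actin cytoskeleton genes held mostly lower members. Of 92 robustly measured genes in the list, 16 were lower without overlap (17.4%, beside 5.98%) and 1, Rhobtb1, was higher. Actb, cytoplasmic beta-actin, was at 1580, 1638 and 1675 FPKM in responsive, 1820, 2095 and 1911 in nonresponsive and 1668, 1883 and 1873 in PBS tumors, a difference of only -0.25 (pooled SD 0.08). Vcl (vinculin), which links actin to adhesion sites, was at 15.8, 14.01 and 16.6 FPKM against 20.4, 31.0 and 29.7, and at 28.0, 28.5 and 23.7 in PBS tumors, a difference of -0.75. Actn1, an actin crosslinker, was at 53.7, 55.1 and 53.0 against 66.9, 86.9 and 80.7 FPKM. For Vcl and Actn1 the PBS tumors lay in the range of the nonresponsive ones. Msn (moesin), which ties actin to the membrane, differed by -0.59 and Arpc2, a subunit of the branching complex, by -0.47. Myh9, the heavy chain of a contractile myosin, differed by -0.26, Cald1 by -0.47, Rhoa by -0.24 and Tpm2 by -0.82. Actg2, a smooth muscle actin, had the largest difference of these, -1.61, with values of 28.0, 13.5 and 14.6 FPKM against 55.4, 111 and 28.1 whose nearest members almost met, and it lost its separation under both rescalings. Vcl, Actn1, Cald1, Myh9, Rhoa, Tpm2, Actg2 and Rhobtb1 were named after their values were seen. The mean level of all 92 genes was 5.34, 5.42 and 5.39 (log2) in responsive, 5.54, 5.73 and 5.63 in nonresponsive tumors, while the PBS tumors had a mean of 5.57 ± 0.05 (SD, n = 3). The responsive and nonresponsive tumors did not overlap in this mean, which random labels would give with a probability of 0.1. Of the 51 function lists, the circadian clock list (4 genes) was the only other one apart, at 3.75 to 3.84 against 3.89 to 3.96. Of the 16 lower genes, 15 kept their separation under upper-quartile and 13 under median-ratio scaling.

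Matrix genes followed with 13 of 87 lower (14.9%, beside 5.98%) and 1 higher, the surface proteoglycan Gpc4. Timp3, an inhibitor of matrix proteases, was at 64.8, 88.5 and 76.5 FPKM in responsive, 120, 150 and 116 in nonresponsive and 109, 114 and 95.1 in PBS tumors. Its PBS tumors lay strictly between the groups. Plod2, a lysyl hydroxylase that prepares collagen for crosslinks, was at 16.4, 19.7 and 16.1 against 38.2, 41.3 and 23.4 FPKM, and Lox, which forms those crosslinks, at 37.6, 17.4 and 31.4 against 52.5, 86.8 and 38.6. Col12a1, a fibril-associated collagen, was at 12.6, 13.1 and 9.93 against 28.3, 48.9 and 24.9 FPKM, while Fbln2 and Col5a1 differed by -0.76 and -0.70. The median difference over all 87 genes was -0.45 (-0.29 without nonresponsive tumor 2), against -0.08 for all genes, but the mean level of the list overlapped between the groups, at 5.16 to 5.42 against 5.34 to 5.99. Fibroblast markers, as given above, were lower in responsive tumors too. Of the 13 lower genes, 9 kept their separation under upper-quartile and 8 under median-ratio scaling.

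Adhesion, signaling, transcription factor and vesicle genes are given beside the shares of 5.98% lower and 3.88% higher for all genes outside the set-aside lists. Of 58 integrin, junction and epithelial genes 5 were lower (8.62%) and 2 higher (3.45%), the lower including Anxa1 (-0.83), Itgb1 (-0.46), the beta-1 integrin, and Gja1, which is near those shares. In receptor tyrosine kinase and MAP kinase signaling 18 of 158 were lower (11.4%) and 3 higher (1.90%), Map4k4 among the lower at 49.2, 51.7 and 45.6 against 65.7, 71.9 and 62.2 FPKM. Transcription factors held 19 lower (15.1%) and 5 higher (3.97%) of 126, but only 10 of the lower and 2 of the higher after median-ratio scaling. Vesicle transport held 18 lower (9.47%) and 6 higher (3.16%) of 190, and under median-ratio scaling this turned to 10 lower and 14 higher.

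Srf, a transcription factor that activates actin genes by binding CArG boxes, was itself lower in responsive tumors, at 17.2, 20.9 and 21.0 FPKM against 26.5, 22.4 and 24.4, with PBS tumors at 21.8 to 28.9. Its separation was lost under median-ratio scaling, and it was named after its values were seen. Among promoters of RefSeq (GRCm38.p6, 250 bases before to 50 after the start), a CArG box stood in 1.81% of 27025 genes, in 1.62% of the 4572 robustly measured genes with a promoter and in 1 of 14 of the lower actin genes with one, Vcl. The 250 bases before the start of Vcl and Srf are given because they carry the box, which is in capitals, 5′ to 3′ on the gene's strand. Vcl lies at chr14:20929148-20929397 (plus strand) and Srf at chr17:46556163-46556412 (minus strand, with 2 boxes).
Vcl: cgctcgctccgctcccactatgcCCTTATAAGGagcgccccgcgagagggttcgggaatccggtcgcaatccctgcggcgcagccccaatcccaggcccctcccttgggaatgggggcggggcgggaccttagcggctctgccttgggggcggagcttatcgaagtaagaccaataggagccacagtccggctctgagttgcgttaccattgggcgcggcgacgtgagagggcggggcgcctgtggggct
Srf: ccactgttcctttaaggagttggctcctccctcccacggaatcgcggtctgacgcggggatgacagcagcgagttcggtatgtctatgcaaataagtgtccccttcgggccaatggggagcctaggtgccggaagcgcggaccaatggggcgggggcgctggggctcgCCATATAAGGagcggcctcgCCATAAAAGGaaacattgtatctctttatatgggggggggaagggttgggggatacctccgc
A match in these letters is a description of the window and says nothing on binding in these tumors.

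Glycolysis and the pentose phosphate pathway held 4 lower and 0 higher of 22 genes (18.2% lower, beside 5.98%). G6pdx, the first enzyme of the pentose phosphate pathway, was at 20.1, 22.2 and 24.7 FPKM in responsive and 38.7, 36.6 and 30.1 in nonresponsive tumors, with PBS tumors at 25.5 to 30.6. Eno1 (enolase) was at 351, 517 and 391 against 600, 573 and 674 FPKM, and Pgam1 differed by -0.47, its groups almost meeting at 308 and 309 FPKM. Its pseudogene copy Pgam1-ps2, also lower, may share its reads. Pgm2 differed by -0.53. In the hypoxia list 4 of 28 were lower (14.3%, beside 5.98%) and 0 higher. Eno1, Plod2 and Lox were among the lower ones, so that these lists share genes. Median-ratio scaling kept 3 of the 4 glycolysis and 2 of the 4 hypoxia genes apart. The median difference over the glycolysis list was -0.29, but -0.09 without responsive tumor 1 and -0.55 without responsive tumor 2. Over the hypoxia list it was -0.30, with -0.15 and -0.61 without the same tumors. The mean levels of both lists overlapped between the groups.

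Respiratory chain and citric acid cycle genes held mostly higher members. Of the 32 genes in the complex I list 7 were higher (21.9%, beside 3.88%) and 0 lower. Ndufa4, which sits in complex IV although named for complex I, was at 314, 322 and 301 FPKM against 270, 219 and 276, but PBS tumors spread from 193 to 314. Ndufs5 was at 143, 146 and 122 against 116, 105 and 108 FPKM and Ndufb5 at 155, 133 and 137 against 124, 128 and 127. These are narrow differences of 0.31 and 0.17. Of complexes II and III 3 of 18 were higher (16.7%), mt-Cytb, encoded in the mitochondrial genome, being at 9595, 7067 and 7314 against 5174, 6004 and 4642 FPKM. Uqcrq and Uqcrh differed by 0.54 and 0.41. The citric acid cycle held 5 of 26 (19.2%), among them Fh1 (fumarase) at 65.7, 34.2 and 42.4 against 22.7, 26.5 and 26.3 FPKM, Suclg2 (0.40), Pdhb (0.15) and 2 cytosolic enzymes, the malate dehydrogenase Mdh1 (0.30) and the aconitase Aco1 (0.19). The median difference was 0.23 for complex I (0.14 without nonresponsive tumor 2, and 0.35 without nonresponsive tumor 3). For the citric acid cycle it was 0.14, but 0.03 without nonresponsive tumor 1 and 0.06 without responsive tumor 1. Without nonresponsive tumor 1, 7 of its 26 genes were higher and 4 lower without overlap. Beside these stood 757 higher and 1159 lower of all 5880 genes in the same setting. The mean level of each list overlapped between the groups, at 6.16 to 6.51 against 5.88 to 6.26 for complex I. Of 48 mitochondrial ribosomal proteins 4 were higher (8.33%) and 1 lower, and of 47 cytosolic ones 2 were higher (4.26%) and 0 lower.

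Redox and heme genes are given next. Of 40 glutathione, thioredoxin and NRF2 target genes 8 were higher (20%, beside 3.88%) and 1, G6pdx, lower. Sod1, which removes superoxide, was at 824, 746 and 622 FPKM in responsive, 597, 329 and 363 in nonresponsive and 374, 366 and 405 in PBS tumors. Gclc, the catalytic subunit of the first step of glutathione synthesis, was at 41.0, 28.6 and 46.8 against 22.4, 18.8 and 16.0 FPKM, and its difference of 0.97 became 0.55 with the hepatocyte markers as a covariate. Blvrb, a biliverdin reductase, was at 108, 120 and 109 against 102, 71.5 and 67.8 FPKM, and Park7 differed by 0.31. In the iron and heme list 4 of 27 were higher (14.8%, beside 3.88%). Cpox, an enzyme of heme synthesis, was at 27.3, 21.7 and 25.0 against 17.4, 13.1 and 17.3 FPKM. The median difference was 0.10 over the redox list, with 0.06 without nonresponsive tumor 2 and 0.21 without nonresponsive tumor 1, and 0.04 over the iron and heme list, where it changed sign on leaving out responsive tumor 1 (-0.07) or nonresponsive tumor 3 (-0.08) and was 0.21 without responsive tumor 2. The mean levels of both lists overlapped between the groups, at 6.40 to 6.66 against 6.20 to 6.63 and at 5.64 to 5.93 against 5.56 to 5.88. Gclc, Cpox, Fh1, Ggct, Pgm2, Pgam1-ps2 and Gpc4 were named after their values were seen. The antioxidant response element (TGACNNNGC, either strand) stood in 13.99% of promoters of all genes, in 17.2% of those robustly measured, and in 2 of 7 of the higher redox genes with a promoter, Ggct and Sod1. The 250 bases before the Sod1 start, at chr16:90220512-90220761 (plus strand), are given with the element in capitals.
Sod1: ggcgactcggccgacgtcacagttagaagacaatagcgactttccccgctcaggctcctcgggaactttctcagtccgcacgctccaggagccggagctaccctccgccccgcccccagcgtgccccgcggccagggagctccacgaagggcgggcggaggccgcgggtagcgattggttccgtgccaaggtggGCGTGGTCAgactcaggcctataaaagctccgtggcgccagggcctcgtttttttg

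ER folding genes held 5 of 31 higher (16.1%, beside 3.88%) and 0 lower. Upper-quartile scaling kept all 5 apart and median-ratio scaling 3. P4hb (protein disulfide isomerase) was at 373, 382 and 356 FPKM against 318, 339 and 302, and Selenos at 72.8, 74.2 and 67.4 against 64.9, 56.5 and 50.6. Creld2, which is induced by ER stress, was at 104, 85.5 and 95.5 against 82.5, 53.8 and 45.6 FPKM, and its difference of 0.68 became 0.17 with the covariate. The ER stress response element (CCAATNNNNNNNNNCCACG, either strand) stood in 0.14% of all promoters and 0.15% of those robustly measured, and among 4 of the higher ER genes with a promoter in that of Creld2, at chr15:88819396-88819645 (plus strand), given with the element in capitals.
Creld2: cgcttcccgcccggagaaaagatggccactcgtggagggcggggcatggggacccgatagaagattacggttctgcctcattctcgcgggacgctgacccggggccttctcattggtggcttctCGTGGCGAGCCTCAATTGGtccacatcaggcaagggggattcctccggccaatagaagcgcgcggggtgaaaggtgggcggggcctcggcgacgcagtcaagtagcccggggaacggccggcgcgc

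**Figure D3:**
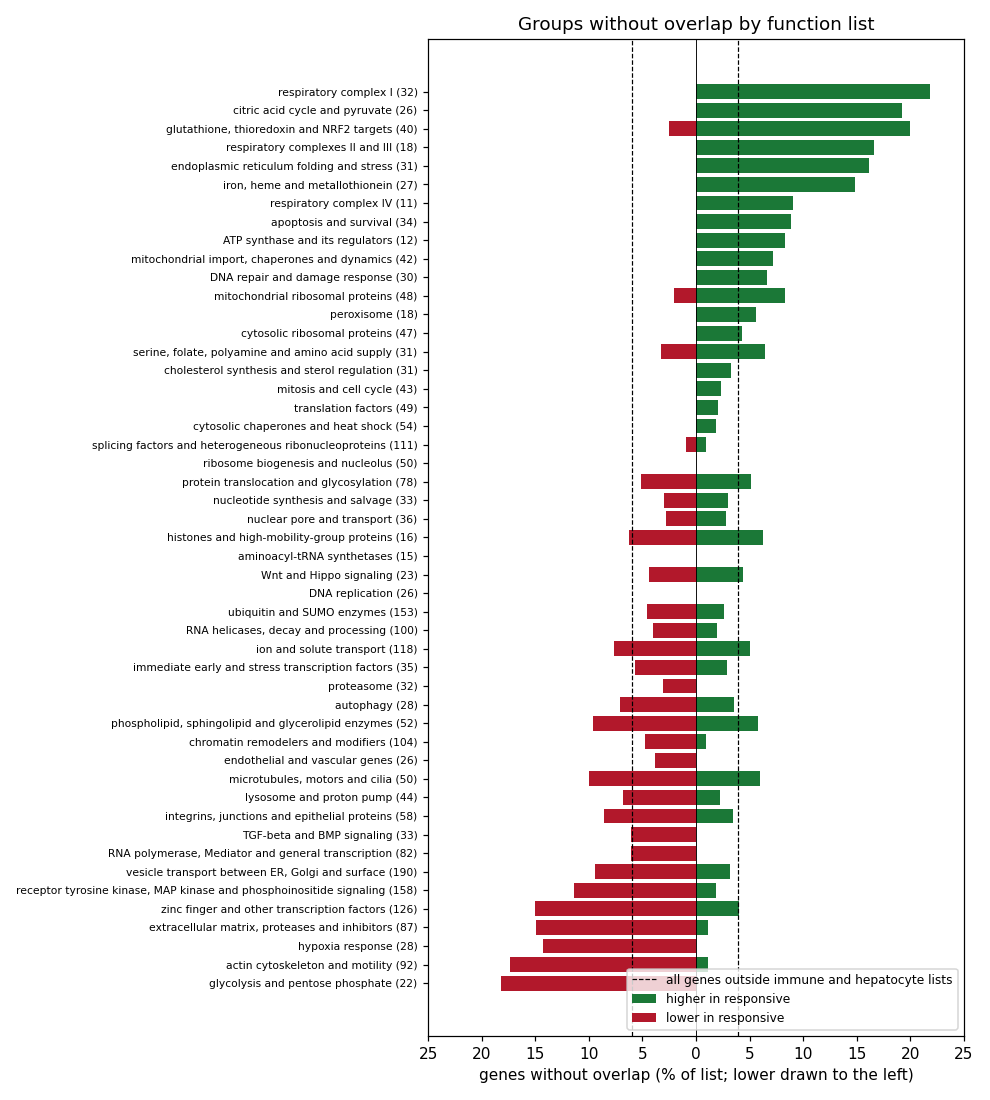
Share of each function list, in percent of its robustly measured genes (number in brackets, lists of at least 10), without overlap and higher (green, right) or lower (red, left) in responsive tumors, with dashed lines at 3.88% and 5.98% for all genes outside the immune and hepatocyte lists. The complex I list reaches 21.9% higher, glycolysis and pentose phosphate 18.2% lower and actin 17.4% lower. Ribosome biogenesis, DNA replication and tRNA synthetases have 0 in either direction.

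Several functions held few or no members. Ribosome biogenesis (50 genes), DNA replication (26), aminoacyl-tRNA synthetases (15) and the oncofetal list (7) had 0 genes without overlap in either direction. The shares over all genes outside the set-aside lists were 3.88% higher and 5.98% lower. At such shares the smaller of these lists would hold few members, so a count of 0 is no result about the function. Splicing factors had 1 in each direction of 111, and mitosis genes 1 higher and 0 lower of 43, while the summed FPKM of proliferation markers overlapped at 54.9 to 214 against 50.03 to 436.

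**Figure D4:**
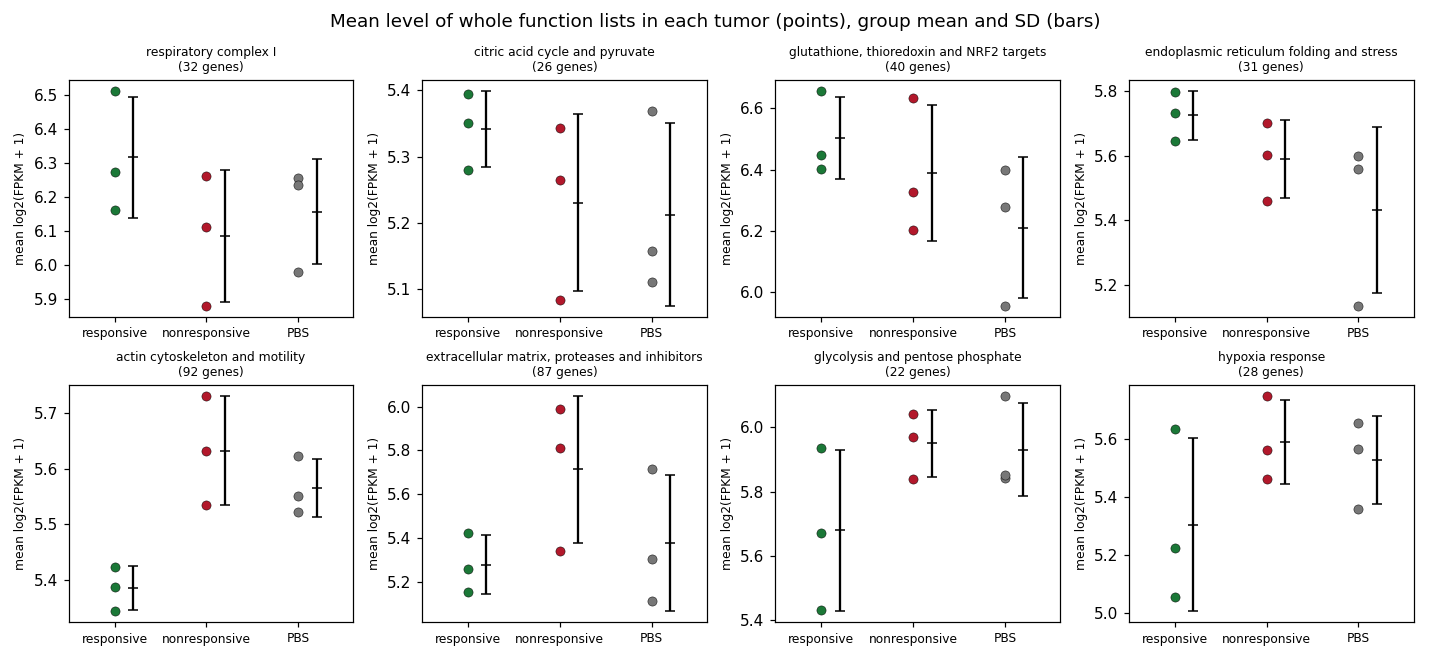
Mean log2(FPKM + 1) over all robustly measured genes of 8 function lists, 1 point per tumor, with the group mean and SD (n = 3) beside it. Responsive and nonresponsive points are apart for the actin list, at 5.34 to 5.42 against 5.54 to 5.73, and overlap in the other 7. Among the function lists not drawn, only the circadian clock list was apart.

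The hepatocyte and immune lists did not hold every gene of those cells. Spp2, a secreted liver protein, was at 39.6, 25.8 and 32.8 FPKM against 20.9, 8.14 and 9.89, and its difference of 1.36 became 0.77 with the covariate. For Chchd10 (1.46 to 0.47), Hsd17b2 (1.37 to 0.15), Chd9 (1.05 to 0.29) and Ltb, a lymphocyte cytokine (1.03 to 0.27), the covariate took away more, and for Mettl7b, Mst1, Ldhd and Zfp36l1 it turned the sign. Myd88, Irak4 and Tbk1, which act in innate immune signaling, differed by -0.56, -0.33 and -0.32. Over all members the median difference went from 0.46 to 0.38 for the higher genes and from -0.39 to -0.35 for the lower ones. The covariate is fitted on spread within groups, which was lower in the members than in all genes. The size of this change is thus not independent of the selection. Spp2, Hsd17b2, Ltb, Mst1, Ldhd, Myd88, Irak4 and Tbk1 were named after their values were seen.

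PBS tumors, which took no part in the separation, lay nearer to nonresponsive ones for most members. The median PBS value was nearer to the nonresponsive than to the responsive median for 158 of 204 higher genes (77.5%) and 249 of 314 lower genes (79.3%), against 65.9% of all robustly measured genes. All 3 PBS values lay within or beyond the nonresponsive side for 89 of the higher and 114 of the lower genes, and within or beyond the responsive side for 9 and 8. The mean of both antibody groups was also compared with PBS. This is no independent test of the members, since they were selected for separated values in the same 6 tumors that supply most of limma's estimate of spread. Their median pooled SD within the antibody groups was 0.19 (higher) and 0.16 (lower), against 0.33 for all genes. The FPKM minimum also held for antibody-treated tumors only, so that PBS values could be 0, as for 4 of the higher genes. limma gave 724 of 5880 genes (12.3%) an unadjusted p under 0.05, 460 higher (7.82%) and 264 lower (4.49%) in antibody-treated tumors. Among the members 79 of 518 had one, 40 higher and 1 lower of the 204, and 4 higher and 34 lower of the 314. These counts are a description. None of the 518 had an adjusted p under 0.05, the smallest being 0.392. The 1 gene with an adjusted p under 0.05, Nectin2, is no member and is listed at 0 in all 3 PBS tumors. Without PBS tumor 1, which had the lowest hepatocyte markers, 32 members had an unadjusted p under 0.05.

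The limits of the selection were narrow. The last genes inside were Mief1 and Btd among the higher and Mindy3 and Ap5b1 among the lower genes, with gaps of at most 0.0011 on the log2 scale. Just outside were Gss, Dera, Dot1l and Pstpip1, whose groups overlapped by at most 0.0031. At the FPKM threshold Rfxank (5.03) and Gfpt2 (5.05) were inside, and Ccdc186 (4.98) and Adamts1 (4.98) outside. Upper-quartile scaling kept 195 of the 204 higher and 251 of the 314 lower genes apart, and median-ratio scaling 181 and 199. Scaling also separated other genes. With these counted, upper-quartile scaling gave 251 higher and 272 lower members, and median-ratio scaling 284 higher and 229 lower. Which direction held more members thus depended on the scaling.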

How the data were processed

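RNA of 9 tumors, 3 per group, was sequenced by the submitters. For each tumor the authors deposited FPKM values with their confidence limits, as estimated by Cufflinks from transcripts assembled per tumor, and their processing notes name Bowtie2 2.2.4, TopHat2 2.1.1 and the build mm8. Gene positions in the tables did not match GRCm38, so no positions of the files are given. A table of the authors' own fold changes and p-values was not used. The depth is unknown.

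Values were analysed as log2(FPKM + 1). limma 3.58.1 in R 4.3.3 (trend, not robust, two-sided, Benjamini-Hochberg over 5880 genes) was run after tests on simulated data. Other steps used Python 3.11.15 with pandas 2.3.3. The members and the 51 function lists, some matched by symbol patterns, were chosen with earlier results of these data known. Named genes were the 15 widest gaps per direction, the 3 members of highest mean FPKM per function list, and the genes at the thresholds. Replicates are separate mice. Other names were chosen after seeing values. Alternatives were a pseudocount of 0.1, other FPKM minimums, 2 rescalings, 9 tumors in 1 fit with or without a hepatocyte covariate, a replicate block and leaving out each tumor.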

Additional observations from a re-analysis of the deposited data

Results flagged for a closer look

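For 7 of the genes named by the rule the 3 PBS tumors lay strictly between the responsive and the nonresponsive tumors, so that the antibody groups departed from PBS in opposite directions. This difference was not tested, since the genes were selected on the 2 antibody groups. Responsive minus nonresponsive differences in log2(FPKM + 1) were 0.75 for Lhpp, -0.70 for Dusp6, -1.04 for Gpr107, -0.88 for Lacc1, -0.89 for Mrpl1, -0.59 for Msn and -0.74 for Timp3. Over all 518 members 2 of the higher and 13 of the lower genes had this order. It was recorded for members only, so no share over all genes stands beside these counts, and they are a description.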

How the results depend on the processing

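Counts depended on how many genes and tumors entered. For responsive against nonresponsive tumors, limma gave 594 genes an unadjusted p under 0.05 at an FPKM of at least 1, 160 at 20, 937 with no filter (1 with an adjusted p under 0.05) and 693 with the hepatocyte covariate, 22.9% of them higher, against 369. Leaving out 1 tumor gave 129 to 718 genes, the extremes coming from nonresponsive tumors 2 and 1, and 0 to 0 past adjustment. Responsive tumors 1 (168) and 3 (179) also moved it by over 1.5 times. Genes without overlap numbered 488 higher at an FPKM of at least 1, and 135 higher and 112 lower at 20. Leaving out 1 tumor, which can only add such genes, gave 383 to 757 higher and 443 to 1159 lower. Counts moved most without nonresponsive tumors 1 and 3 and responsive tumor 2. Members numbered 355 higher at an FPKM of at least 1, 89 higher and 101 lower at 20, and 290 to 511 higher and 414 to 1122 lower with 1 tumor left out. For antibody-treated against PBS tumors, 1130 genes had an unadjusted p under 0.05 at an FPKM of at least 1, 243 genes and 19 members at 20, and 199 to 1400 genes and 32 to 89 members with 1 tumor left out, the lowest of both without PBS tumor 1. The gene count also moved by over 1.5 times without nonresponsive tumor 1 (462) or 3 and responsive tumor 1 (413) or 2. Restricting the test to genes above 0 in all 3 PBS tumors, chosen after seeing the data, gave 719 genes and 0 past adjustment.

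Same-numbered responsive and nonresponsive tumors correlated at 0.73, -0.03 and -0.17 in their deviations from the group means, so the numbers were not taken to pair the tumors. With the replicate number as a block, 476 genes had an unadjusted p under 0.05 between the antibody groups, with 0 past adjustment, and 468 genes and 59 members against PBS.

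With the hepatocyte covariate 4 of the 518 members changed sign, Mettl7b (-0.168), Zfp36l1 (-0.0704), Ldhd (-0.49) and Mst1 (-0.168). With 1 tumor left out, the median difference of cytosolic ribosomal proteins ranged from -0.10 to 0.481, of mitochondrial ribosomal proteins from -0.0423 to 0.202 and of the iron and heme list from -0.0835 to 0.208. The first 2 changed sign on leaving out responsive tumor 2, and the last on leaving out responsive tumor 1 (-0.0714) or nonresponsive tumor 3. The cause was not tested. No other gene named by the rule and no other list median examined reversed under the alternatives run. Without sequencing depth, counting error could not be separated from other error.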
